A study of Homo sapiens with 20 samples.

Results

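The NR4A orphan nuclear receptors are the 3 genes *NR4A1*, *NR4A2* and *NR4A3*, taken by symbol from 58233 Ensembl gene identifiers in RNA-seq counts of 20 libraries. They were chosen by their measured counts after *ADAR* knockout (KO) in 4 lung cancer cell lines and after interferon-β (IFN-β) in A549 cells. Their values in those comparisons are therefore given as a description without a test, and tests are given only for the contrast between the control cells of different lines, which the choice did not use, although the same control libraries are also those of the KO comparisons. HCC366 is a lung adenosquamous carcinoma line, NCI-H1650 and A549 are lung adenocarcinoma lines, and NCI-H196 is a variant small cell lung cancer line. All cells carried Cas9 and an sgRNA delivered by lentivirus and were drug-selected populations, not single clones. The sgRNA was directed against *GFP*, a sequence that is not in these cells (control), or against *ADAR*, which encodes the RNA-editing enzyme ADAR1 that converts adenosine to inosine in double-stranded RNA. HCC366, NCI-H1650 and NCI-H196, which need ADAR1 to survive (ADAR1-dependent lines), were otherwise untreated and were collected 5 days after transduction. A549 cells with either target received 10 ng/mL IFN-β or vehicle (sterile water) for 24 h. The 10 conditions each had 2 libraries with different sgRNAs (sg1 and sg2), so errors are the spread between 2 sgRNAs and not between repeats of the experiment.

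*NR4A1* encodes NUR77, *NR4A2* encodes NURR1 and *NR4A3* encodes NOR1. These transcription factors have the zinc-finger DNA-binding domain of nuclear receptors, but bulky side chains fill the pocket in which other receptors hold a hormone, so their activity depends largely on how much of each protein a cell makes. They bind as monomers to the NGFI-B response element, and all are immediate-early genes, transcribed within minutes of a stimulus through factors that are already present, such as CREB with its coactivators of the CRTC family, MEF2 proteins and serum response factor. NUR77 is known for roles in apoptosis and T cell selection, NURR1 for the maintenance of dopaminergic neurons, and loss of *Nr4a1* together with *Nr4a3* in mice leads to myeloid leukaemia.

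Reads on genes ranged from 62679 to 19520189 per library with a median of 6411279, and the lowest values of each line were 1116439 in HCC366, 4178438 in NCI-H1650, 7381566 in A549 and 62679 in NCI-H196. The library with 62679 reads was NCI-H196 *GFP* sg2, in which 1 read corresponds to 14.5 CPM (counts scaled to library size). HCC366 *ADAR* sg2 also stood apart, with 85.6% of its alignments counted as non-unique against 22.5% to 59.1% in the others, so values of these lines are given with and without these libraries. No 2 files held the same values. *ADAR* mRNA was lower with *ADAR* sgRNAs in all 5 comparisons without overlap between libraries, with a log2 fold change from −1.29 in NCI-H1650 to −0.41 in NCI-H196, and edgeR's quasi-likelihood test called 4 of them (adjusted p = 0.208 in HCC366). Lineage markers did not all follow the type of the line. Of the squamous markers, 3 of 4 had a median under 1 CPM in HCC366, 1 of them without a read. In the adenocarcinoma line NCI-H1650, 0 of these 4 were under 1 CPM. Of the neuroendocrine markers, 3 of 5 were under 1 CPM in NCI-H196, where *NEUROD1* and *INSM1* had 0 reads. Of the lung adenocarcinoma markers, 3 of 4 were under 1 CPM in A549 and in NCI-H1650, and *NKX2-1* had a median of 0 in both. The T cell marker *CD3E* had 0 reads in every line, and the leukocyte marker *PTPRC* reached at most 2.42 CPM.

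*NR4A1* (ENSG00000123358) lies on the plus strand of chromosome 12 of GRCh37, from 52416616 to 52453291, and has 22 annotated transcripts whose exons cover 7295 bases. *NR4A2* (ENSG00000153234) lies on the minus strand of chromosome 2 from 157180949 to 157198860, with 15 transcripts and 4111 bases of exon. *NR4A3* (ENSG00000119508) lies on the plus strand of chromosome 9 from 102584137 to 102629173, with 4 transcripts and 6314 bases of exon. Counts sum the exonic reads of all transcripts, so isoforms are not separated. An antisense gene that shares exonic sequence with *NR4A1*, *NR4A1AS*, had 15 reads in all 20 libraries together. The library kit kept strand, but the strand setting of the counting is not given in the sources used here.

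The promoter of *NR4A3* is shown because *NR4A3* had the largest fitted fold of the family after *ADAR* KO in each ADAR1-dependent line and in A549 with IFN-β. This order within the family was not tested. The promoter is also shown because its sequence holds repeats of the core of the cAMP response element, the site bound by CREB. The promoter windows used here, before RefSeq start sites (GRCh38.p14), numbered 1 for *NR4A3*, 2 for *NR4A1* and 0 for *NR4A2*, which was therefore not searched. The 250 bases before the *NR4A3* start, at chr9:99821635-99821884 on the plus strand, have a GC content of 68.0%. Capitals mark TGACG, or its reverse complement CGTCA.
NR4A3: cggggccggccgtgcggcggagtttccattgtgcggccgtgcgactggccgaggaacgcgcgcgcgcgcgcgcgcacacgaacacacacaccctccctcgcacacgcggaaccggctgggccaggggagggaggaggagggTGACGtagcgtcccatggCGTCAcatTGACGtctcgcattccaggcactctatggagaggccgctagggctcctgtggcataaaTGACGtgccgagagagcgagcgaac
The window held 4 copies, 3 of them on the plus strand at 109 to 105, 83 to 79 and 25 to 21 bases before the start and 1 on the minus strand at 91 to 87 bases. TGACG was found on either strand in 21.2% of 35116 promoter windows of the same length, and 4 or more copies in 0.236% (83 windows), a number of copies set after the *NR4A3* window had been read. The window held no complete cAMP response element (TGACGTCA, in 1.65% of windows), no NGFI-B response element (AAAGGTCA, 1.05%) and no AP-1 site (TGACTCA, 4.20%). The *NR4A1* windows, at chr12:52022582-52022831 and chr12:52037465-52037714, held no TGACG, and the second held 1 GC box (GGGCGG, which is in 42.6% of windows). Both lie upstream of the start of the main (Ensembl canonical) *NR4A1* transcript, which is at 52445226 of GRCh37, inside the gene that begins at 52416616. The promoter at that start was not searched, so *NR4A1* and *NR4A3* are not compared by these windows. A match of these letters is a description of the sequence and not a measured binding site.

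In control cells the family differed between the lines gene by gene. *NR4A1* was lowest in HCC366, *NR4A2* was lowest in A549, and *NR4A3* was highest in NCI-H1650 and at 1.46 CPM in the deeper NCI-H196 library. Levels are CPM scaled over the 8 control libraries by the trimmed mean of M-values (TMM), and bulk counts cannot tell fewer expressing cells from less RNA per cell. *NR4A1* was at 8.72 and 5.30 CPM in HCC366 (sg1, sg2), 20.5 and 21.0 in NCI-H1650, 23.2 and 23.5 in NCI-H196, and 24.8 and 28.5 in A549. Both HCC366 libraries were below all others. HCC366 was lower than A549 (log2 difference of A549 minus HCC366 2.09, SE 0.28, adjusted p = 1.2e-11 by edgeR's quasi-likelihood test), lower than NCI-H1650 (−1.72, SE 0.30, adjusted p = 1.84e-07) and lower than NCI-H196 (−1.88, SE 0.31, adjusted p = 2.64e-08). The other 3 lines did not differ beyond the spread in this fit. A549 minus NCI-H1650 was 0.37 (SE 0.19, adjusted p = 0.0683, edgeR), which became 0.40 with an adjusted p of 0.0439 without NCI-H196 *GFP* sg2. A549 minus NCI-H196 was 0.21 (SE 0.21, adjusted p = 0.365), and NCI-H1650 minus NCI-H196 was −0.16 (SE 0.22, adjusted p = 0.534).

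*NR4A2* was at 0.671 and 2.85 CPM in control A549 cells, 5.55 and 7.94 in HCC366, 8.58 and 8.95 in NCI-H1650, and 5.94 and 0 in NCI-H196, where the 0 came from the shallow library. A549 was below HCC366 (−1.82, SE 0.43, adjusted p = 7.62e-05, edgeR), NCI-H1650 (−2.10, SE 0.36, adjusted p = 4.26e-08) and NCI-H196 (−1.52, SE 0.40, adjusted p = 0.000385), although its range overlaps that of NCI-H196. None of the 3 calls held with DESeq2, which gave adjusted p of 0.127, 0.0546 and 0.344. The ADAR1-dependent lines did not differ among themselves in *NR4A2* beyond the spread, with adjusted p from 0.157 to 0.565. Differences from NCI-H196 rest on its sg1 library: without it, the NCI-H196 control is 1 library with 0 reads of *NR4A2* and of *NR4A3*, and the fitted *NR4A2* difference from A549 changes sign to 6.21, a value set by the prior count.

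*NR4A3* was at 11.9 and 15.9 CPM in NCI-H1650, 6.35 and 6.47 in HCC366, 5.71 and 10.6 in A549, and 1.46 and 0 in NCI-H196. The sg1 library of NCI-H196 lay below all libraries of the other lines, while the 0 of sg2 sets no level, since 3 reads there would be 43.6 CPM within the line. NCI-H196 was lower than NCI-H1650 (log2 difference of NCI-H1650 minus NCI-H196 3.24, SE 0.42, adjusted p = 2.52e-12, edgeR), A549 (2.55, SE 0.43, adjusted p = 2.39e-08) and HCC366 (2.14, SE 0.52, adjusted p = 0.000159). NCI-H1650 exceeded HCC366 (HCC366 minus NCI-H1650 −1.11, SE 0.35, adjusted p = 0.00415) and A549 (A549 minus NCI-H1650 −0.70, SE 0.26, adjusted p = 0.0133). A549 and HCC366 were not told apart (0.41, SE 0.35, adjusted p = 0.313). With DESeq2 the differences of NCI-H1650 from A549 (adjusted p = 0.437) and HCC366 (0.363) and of HCC366 from NCI-H196 (0.0870) were not called. Of 15964 genes tested between control cells of 2 lines, 64.9% were called in A549 against HCC366, 68.3% in A549 against NCI-H1650, 70.5% in A549 against NCI-H196, 56.7% in HCC366 against NCI-H1650, 57.3% in HCC366 against NCI-H196 and 61.7% in NCI-H1650 against NCI-H196. The members' 18 comparisons held 11 calls by edgeR, a share near that of all genes, and 5 by DESeq2. A549 also differed from the other lines in its vehicle and in its handling, which cannot be told apart from the line.

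**Figure D1:**
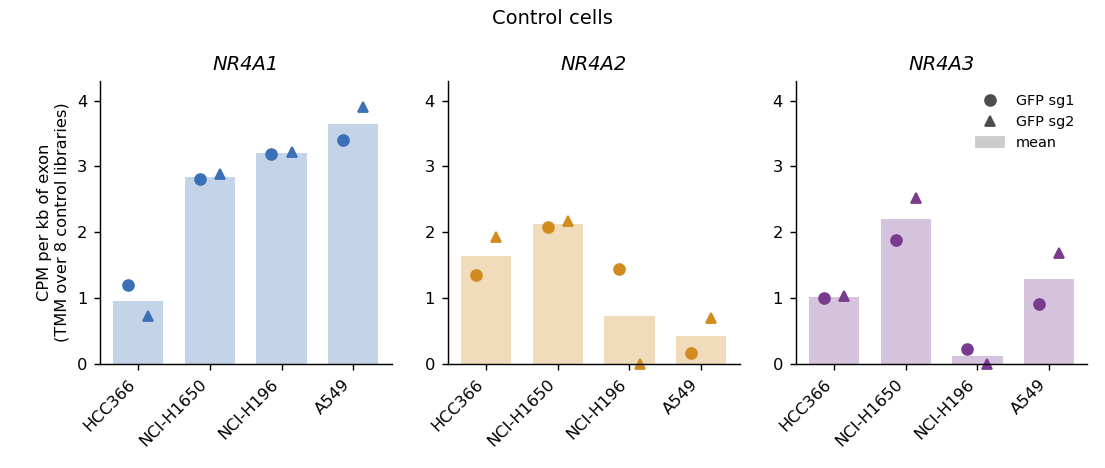
Level of each NR4A gene in the 8 control (*GFP* sgRNA) libraries, in CPM per kilobase of exon (TMM over these libraries), by cell line; circles are sg1 and triangles sg2. *NR4A1* is lowest in HCC366 (0.726 to 1.20 CPM per kb), *NR4A2* is at 0.163 and 0.692 in A549, and *NR4A3* is at 0.231 and 0 in NCI-H196, where the 0 is from the library with 62679 reads.

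After *ADAR* KO in the 3 ADAR1-dependent lines, each of the 3 genes had a higher mean with *ADAR* than with *GFP* sgRNAs. The folds fitted by edgeR, which are not ratios of these means, were 1.25 to 5.21. *NR4A3* had the largest fitted fold in each line, an order that was not tested. In NCI-H1650 it was within the standard errors of *NR4A2*. The libraries were clearly apart for all members in NCI-H1650, but *NR4A2* in HCC366 overlapped under another scaling, and the NCI-H196 control was measured mainly in 1 library. Levels below are CPM scaled by TMM within each line. In NCI-H1650, where the reads were most even between libraries, *NR4A3* was at 12.5 and 16.8 CPM with *GFP* sgRNAs (57 and 71 reads) and 47.9 and 63.2 with *ADAR* sgRNAs (260 and 298 reads). *NR4A2* was at 8.97 and 9.48 CPM in the controls and 26.2 and 36.0 after KO, and *NR4A1* at 21.4 and 22.3 against 50.3 and 43.2. The *ADAR* libraries lie well above the controls for every member. The log2 fold changes were 1.92 for *NR4A3* (SE 0.17, 3.79-fold), 1.74 for *NR4A2* (SE 0.20, 3.35-fold) and 1.10 for *NR4A1* (SE 0.16, 2.14-fold). Of the genes tested in this line, 6.19% were called higher at an adjusted p under 0.05 and all 3 members were among them, from which nothing is read since this contrast chose them.

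In NCI-H196, *NR4A1* was at 24.7 and 29.1 CPM in the controls (223 reads and 2 reads) and 48.3 and 50.4 after KO (48 and 405 reads). *NR4A2* was at 6.30 and 0 CPM (57 and 0 reads) against 18.1 and 13.3 (18 and 107 reads). *NR4A3* was at 1.55 and 0 CPM (14 and 0 reads) against 10.1 and 7.84 (10 and 63 reads). Both *ADAR* libraries lie above *GFP* sg1 for every member. *GFP* sg2 adds only 2 reads for the family, and with 3 reads worth 43.6 CPM there, its zeros do not show that the groups are apart, and *ADAR* sg1 was also shallow, at 1026443 reads on genes. The log2 fold changes were 1.02 for *NR4A1* (SE 0.16, 2.02-fold), 1.16 for *NR4A2* (SE 0.27, 2.23-fold) and 2.38 for *NR4A3* (SE 0.42, 5.21-fold). Without *GFP* sg2 they were 1.01, 1.14 and 2.37. All 3 members were among the 10.3% of genes called higher, and nothing is read from that. DESeq2 gave no adjusted p for any member here.

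In HCC366, *NR4A3* was at 6.08 and 6.19 CPM in the controls (8 and 22 reads) and 18.9 and 26.7 after KO (22 and 42 reads). *NR4A1* was at 8.36 and 5.06 CPM (11 and 18 reads) against 10.3 and 16.5 (12 and 26 reads). *NR4A2* was at 5.32 and 7.59 CPM (7 and 27 reads) against 9.44 and 7.62 (11 and 12 reads). *NR4A3* is clearly separated, whereas *NR4A2* is at 7.59 CPM in the higher control and 7.62 in the lower *ADAR* library. With TMM over all 20 libraries the *NR4A2* groups overlap, at 4.99 and 7.21 CPM against 8.94 and 6.82. The log2 fold changes were 1.89 for *NR4A3* (SE 0.43, 3.71-fold), 1.10 for *NR4A1* (SE 0.49, 2.15-fold) and 0.33 for *NR4A2* (SE 0.47, 1.25-fold). Without *ADAR* sg2, the library with many non-unique alignments, they were 1.63 (SE 0.51), 0.77 (SE 0.62) and 0.47 (SE 0.61). None of the members was among the 1.2% of genes called higher by edgeR, and DESeq2 called none of them either. Of the members, 1 was called by edgeR without *ADAR* sg2, and the count was 2 without *ADAR* sg1, 2 in a fit of all 20 libraries and 1 without the filter, from which nothing is read. *NR4A3* passed the filter on low counts in HCC366 and in NCI-H196 only through its *ADAR* libraries.

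**Figure D2:**
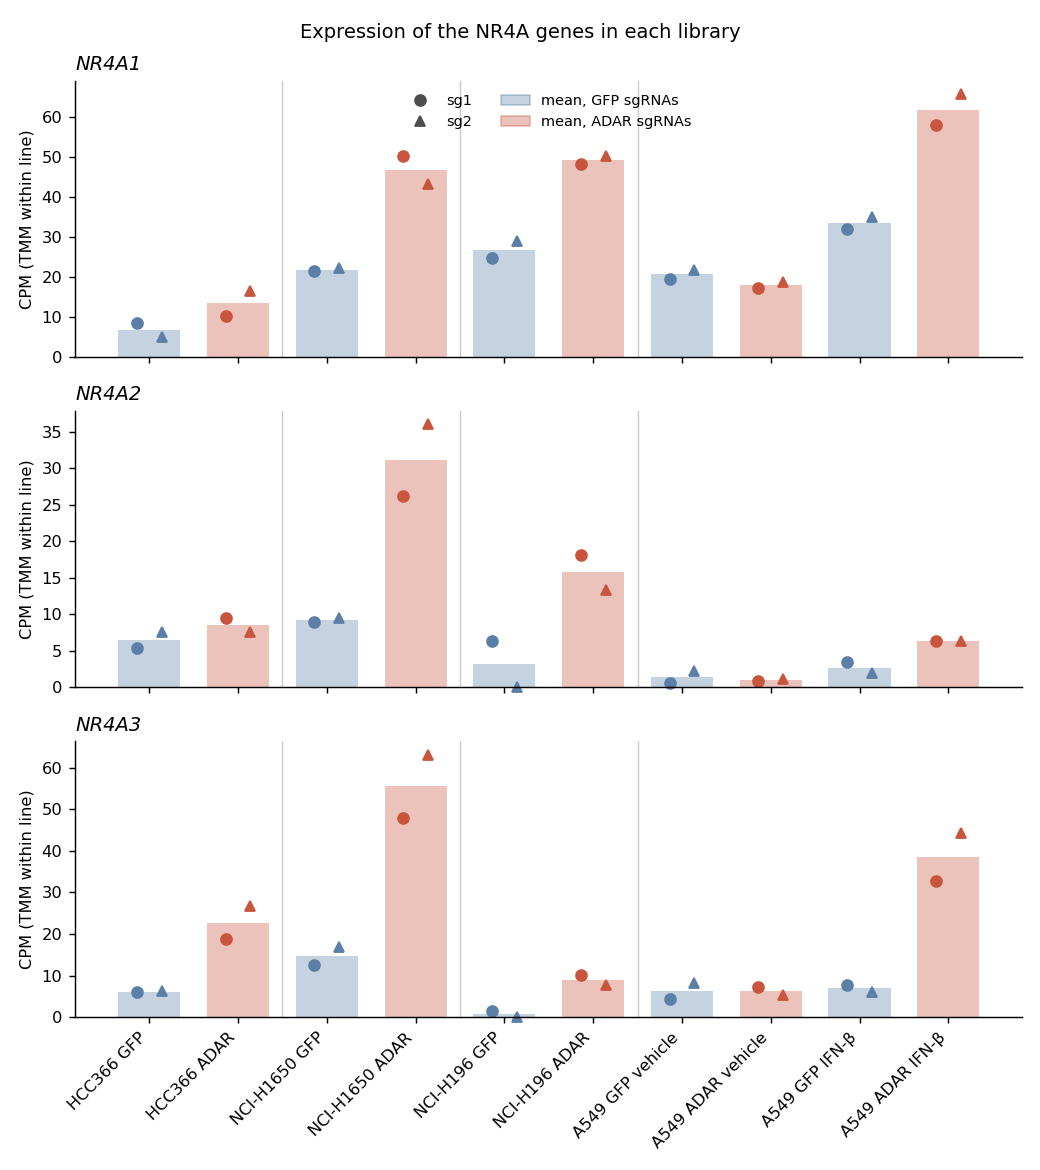
CPM of *NR4A1*, *NR4A2* and *NR4A3* in all 20 libraries (TMM within each cell line), by condition; circles are sg1, triangles sg2 and bars the mean of both. The *ADAR* libraries of NCI-H1650 and of A549 with IFN-β lie above their controls, those of A549 with vehicle do not, and in NCI-H196 the *GFP* triangle rests on 0 to 2 reads.

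In A549, the line reported to survive without ADAR1, the members were not higher after *ADAR* KO with vehicle. *NR4A1* was at 19.5 and 21.9 CPM with *GFP* sgRNAs and 17.2 and 18.7 with *ADAR* sgRNAs, so that both *ADAR* libraries were below the controls. *NR4A3* was at 4.47 and 8.15 CPM (34 and 123 reads) against 7.30 and 5.38 (60 and 53 reads). *NR4A2* was at 0.526 and 2.19 CPM (4 and 33 reads) against 0.851 and 1.12 (7 and 11 reads). The groups overlap for *NR4A2* and *NR4A3*. The log2 fold changes were −0.21 for *NR4A1* (SE 0.16), −0.62 for *NR4A2* (SE 0.54) and −0.08 for *NR4A3* (SE 0.27). None of the members was called by edgeR or DESeq2, and 0.0324% of all genes were called higher (5 of 15449). Leaving out 1 library moved the *NR4A2* value between −1.13 and 0.90 and the *NR4A3* value between −0.38 and 0.49.

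With IFN-β, all 3 members were higher after *ADAR* KO in A549. *NR4A3* was at 7.76 and 6.13 CPM with *GFP* sgRNAs (83 and 99 reads) and 32.8 and 44.3 with *ADAR* sgRNAs (313 and 853 reads). *NR4A1* was at 32.1 and 35.1 CPM against 58.1 and 65.8. *NR4A2* was at 3.37 and 1.98 CPM (36 and 32 reads) against 6.29 in each *ADAR* library (60 and 121 reads). No group overlaps for any member. The log2 fold changes were 2.50 for *NR4A3* (SE 0.23, 5.64-fold), 1.26 for *NR4A2* (SE 0.38, 2.40-fold) and 0.88 for *NR4A1* (SE 0.13, 1.84-fold). All 3 were among the 10.8% of genes called higher by edgeR (6.19% were called lower). DESeq2 called 2 of the 3, and nothing is read from these calls.

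IFN-β itself moved the members unequally in control A549 cells. From the values above, *NR4A1* was higher with IFN-β in both libraries (log2 fold change 0.69, SE 0.14, 1.62-fold), and the groups of *NR4A2* (0.77, SE 0.44) and *NR4A3* (0.05, SE 0.25) overlapped. The *NR4A2* value rests on few reads in the vehicle control and was 2.29 without *GFP* vehicle sg2. *NR4A1* was the only member among the 4.39% of genes called higher, and it was not called without *GFP* vehicle sg1, but nothing is read from these calls. In cells with *ADAR* sgRNAs, the IFN-β libraries were above the vehicle libraries for each gene, with log2 fold changes of 1.79 for *NR4A1* (SE 0.15, 3.46-fold), 2.65 for *NR4A2* (SE 0.46, 6.28-fold) and 2.62 for *NR4A3* (SE 0.24, 6.16-fold). All 3 were among the 15.5% of genes called higher, and nothing is read from that. The interaction term, the *ADAR* KO effect with IFN-β minus that with vehicle, was 1.10 for *NR4A1* (SE 0.21), 1.88 for *NR4A2* (SE 0.66) and 2.57 for *NR4A3* (SE 0.35). *NR4A1* and *NR4A3* were among the 4.07% of genes with a positive call, from which again nothing is read, since IFN-β dependence chose the members. Without *GFP* vehicle sg2 the *NR4A2* interaction was 0.36. The A549 comparisons share control libraries and are not independent of each other.

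**Figure D3:**
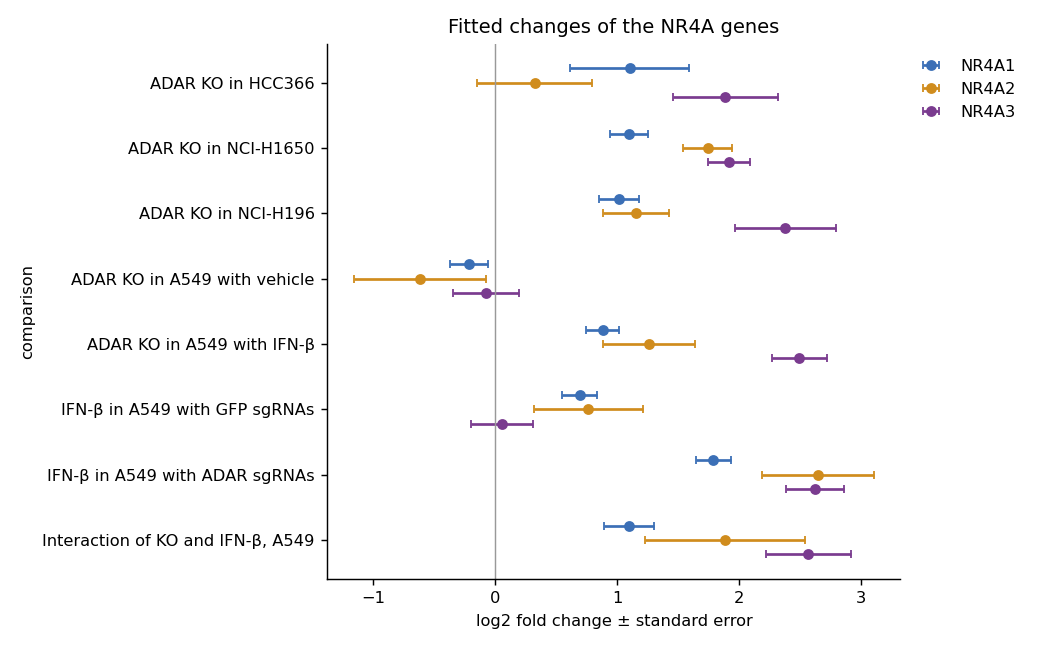
Fitted log2 fold change with its standard error for each member in the 5 *ADAR* KO comparisons, the 2 IFN-β comparisons and their interaction in A549. *NR4A3* has the largest value after *ADAR* KO in HCC366 (1.89), NCI-H1650 (1.92), NCI-H196 (2.38) and A549 with IFN-β (2.50), and in A549 with vehicle all 3 values are below 0. The error bar of *NR4A3* overlaps that of *NR4A2* (1.74) in NCI-H1650 and that of *NR4A1* (1.10) in HCC366.

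The share of *NR4A3* in the family also differed between *GFP* and *ADAR* libraries. Shares were taken from CPM per kilobase of exon, summed over the 3 genes. The exon length is that of all annotated transcripts together (7295 bases from 22 transcripts for *NR4A1*), not of the transcripts these cells express. Shares and ranks of the members therefore depend on the annotation and allow for length only roughly. *NR4A3* made up 28.3% and 27.8% of the sum in HCC366 controls and 44.6% and 50.6% after KO. In NCI-H1650 it made up 27.8% and 33.2% against 36.4% and 40.5%. In A549 with IFN-β it was 19.1% and 15.5% against 35.4% and 39.9%, with no overlap in any of these. With vehicle the shares were 20.2% and 26.8% in A549 controls and 31.1% and 23.1% with *ADAR* sgRNAs, which overlap. NCI-H196 was different in makeup: *NR4A3* was 4.75% of the sum in *GFP* sg1 and 12.6% and 10.9% after KO, so *NR4A1* and *NR4A2* stayed predominant there. *NR4A1* was the most abundant member per kilobase in all 8 A549 libraries, at 51.4% to 76.8%. The summed level was 7.10 and 8.02 CPM per kb in NCI-H1650 controls and 20.8 and 24.7 after KO, and 6.45 and 6.27 against 14.7 and 17.6 in A549 with IFN-β.

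**Figure D4:**
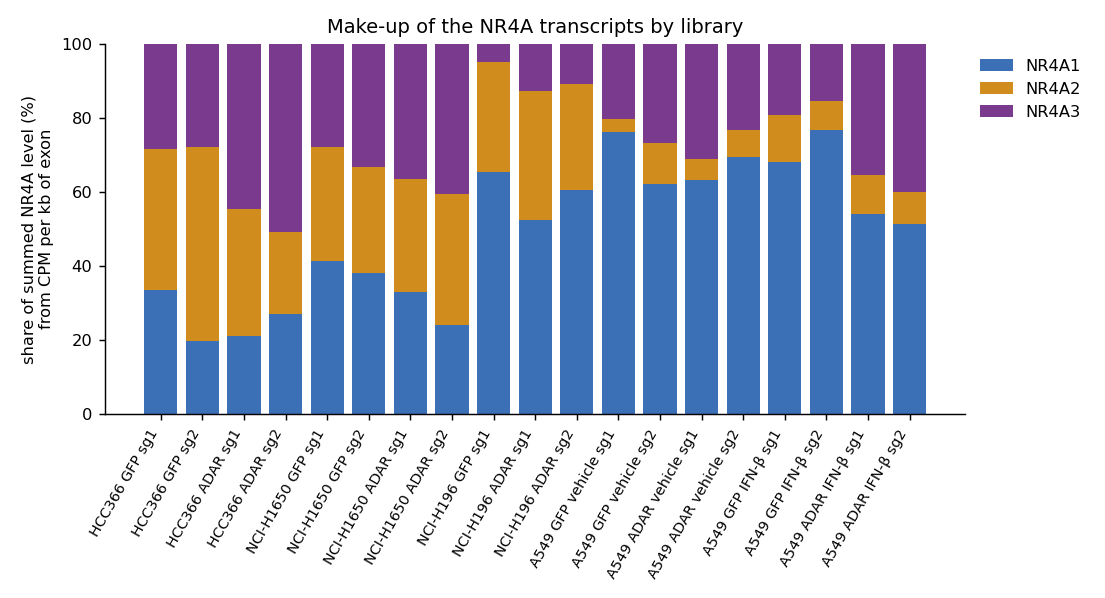
Share of each member in the summed NR4A level (CPM per kilobase of exon), per library, in percent, with exon lengths taken over all annotated transcripts. NCI-H196 *GFP* sg2 is left out because it held 2 NR4A reads. The *NR4A3* share is 27.8% to 33.2% in controls of HCC366 and NCI-H1650 and 36.4% to 50.6% in their *ADAR* libraries.

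Over the 10 conditions, each member had its highest level in cells with *ADAR* sgRNAs, but in different lines. With TMM scaling over all 20 libraries, *NR4A1* was highest in A549 with *ADAR* KO and IFN-β, at 73.0 ± 6.86 CPM (SD, n = 2 sgRNAs), apart from all others. NCI-H1650 and NCI-H196 after KO (means of 42.02 and 41.7 CPM) and control A549 with IFN-β (40.7) came next and overlapped. HCC366 had the lowest *NR4A1* levels, 12.3 CPM after KO and 6.32 in the controls. *NR4A2* was highest in NCI-H1650 after KO (28.0 CPM), then in NCI-H196 after KO (13.2). The lowest *NR4A2* means, 3.24, 2.76, 1.68 and 1.21 CPM, belonged to control A549 with IFN-β, control NCI-H196, control A549 with vehicle and A549 after KO with vehicle, and neighbours in that order overlapped. The place of control NCI-H196 is not resolved. Its mean combines 5.52 CPM in sg1, which is above control A549 with IFN-β, with the 0 of the shallow sg2 library, which sets no level. *NR4A3* was highest in NCI-H1650 after KO (49.9 CPM) and A549 with KO and IFN-β (45.4), which overlapped, and HCC366 after KO followed at 20.9. The *NR4A3* level of NCI-H196 after KO (7.51 CPM) overlapped with that of A549 cells with vehicle (7.79 in the controls and 7.77 after KO), although its fold over its own control was among the largest.

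Across the 19 libraries other than NCI-H196 *GFP* sg2, the log2 CPM values of the members correlated weakly to moderately with each other, with Pearson's r of 0.16 for *NR4A1* and *NR4A2*, 0.43 for *NR4A1* and *NR4A3*, and 0.52 for *NR4A2* and *NR4A3*. After the mean of each line was subtracted, r was 0.83, 0.89 and 0.85. These points share cell lines, sgRNAs and the KO contrast and are given as a description. Among 19522 genes, those whose pattern was most like *NR4A1* over the 19 libraries were *ARID3B* (r = 0.909), *CD274* (0.906), *ZNF592* (0.896), *MYO10* (0.890) and *PRDM1* (0.887). For *NR4A2* they were *ZNF419* (0.938), *B3GNT5* (0.906), *FBXO42* (0.897), *JMJD1C* (0.896) and *IFNL1* (0.892), and for *NR4A3* they were *TGIF2* (0.906), *GATA6* (0.900), *ITPKC* (0.890), *DNMBP* (0.867) and *BHLHE40* (0.861). No gene was among the first 5 of more than 1 member. After the mean of each line was subtracted, none of the genes named for a member stayed among its first 5. The first genes were then *C3* for *NR4A1* (r = 0.964), *ZNF827* for *NR4A2* (0.915) and *NFKB1* for *NR4A3* (0.963). With all 20 libraries, only *MYO10* and *PRDM1* stayed for *NR4A1*, *ZNF419* for *NR4A2*, and *GATA6* and *ITPKC* for *NR4A3*.

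Other immediate-early genes, a list of 30 that includes the EGR, FOS and JUN families, were mostly called higher after *ADAR* KO in A549 with IFN-β and in NCI-H1650, and in varying numbers in the other lines. In A549 with IFN-β, 25 of 27 tested were called higher by edgeR (92.6%, against 10.8% of all genes) and 24 by DESeq2. The median log2 fold change was 1.49 against −0.01 over all genes. *EGR1*, a zinc-finger factor induced by growth factors, was at 1.59 and 0.991 CPM with *GFP* sgRNAs and 308 and 497 with *ADAR* sgRNAs (log2 fold change 8.34, SE 0.26, adjusted p = 2.81e-20, edgeR). *FOSB* (4.98, SE 0.28) and *ATF3* (4.57, SE 0.20) also rose. With vehicle, edgeR called 1 of 27 (3.70%, against 0.0324% of all genes), and DESeq2 called 0 (3 had an unadjusted p under 0.05 in edgeR). The gene called was *EGR1* (2.85, SE 0.55, adjusted p = 0.0172, edgeR), at 0.790 and 0.331 CPM against 1.95 and 4.97. The *EGR1* call with vehicle was lost without *GFP* vehicle sg2 or *ADAR* vehicle sg2. In the controls, IFN-β raised 4 of 27 (14.8%, against 4.39% of all genes), led by *CSRNP1* (0.80), *KLF6* (0.71) and *MCL1* (0.66). In *ADAR* KO cells it raised 26 of 27 (96.3% against 15.5%). The interaction was called positive for 22 of 27 (81.5% against 4.07%).

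In the ADAR1-dependent lines, 21 of 30 immediate-early genes rose in NCI-H1650 (median 0.95), led by *EGR2* (3.03, SE 0.55), *EGR3* (2.15, SE 0.47) and *ATF3* (1.91, SE 0.12). In NCI-H196, 27 of 30 rose and 1 fell (median 0.84). The fitted log2 fold change was 3.34 for *EGR1* (SE 0.16), and *CTGF*, a matrix-associated growth factor gene, fell (−0.73, SE 0.10). This count was 27 also without *GFP* sg2, but 1 by DESeq2, 1 without *GFP* sg1, 16 without *ADAR* sg1 and 5 without *ADAR* sg2, and *CTGF* was at 0.048 without *GFP* sg1. In HCC366, 6 of 26 rose (median 1.51), with *EGR1* at 2.28 and 3.94 CPM against 92.7 and 236 (5.59, SE 0.61, adjusted p = 0.0272, edgeR). The HCC366 count was 20 without *ADAR* sg2, 26 without *ADAR* sg1 and 2 without *GFP* sg2.

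Genes known to respond to cAMP, a list of 15 without the NR4A members, had 6 to 10 genes with enough reads to be tested. In NCI-H1650, 6 of 7 tested rose by edgeR (85.7%, against 6.19% of all genes) and 3 by DESeq2, with a median of 1.06. The first were *SIK1*, a kinase that restrains CREB coactivators (1.53, SE 0.41), the clock gene *PER1* (1.15, SE 0.14) and the growth factor gene *AREG* (1.12, SE 0.20). The NCI-H1650 count was 3 without *GFP* sg2. In A549 with IFN-β, 7 of 9 rose after KO (median 1.04), which is 77.8% against 10.8% of all genes. With vehicle 0 of 9 were called by edgeR or DESeq2 (3 had an unadjusted p under 0.05 in edgeR, all of them lower). Of all genes, 0.0324% were called higher there. *PER1* was at 13.8 and 15.8 CPM against 84.2 and 110 with IFN-β (2.71, SE 0.15, adjusted p = 2.79e-14, edgeR), next to 13.29 and 13.05 against 14.2 and 13.7 with vehicle. In NCI-H196 2 of 10 rose and in HCC366 2 of 6, and *PER1* was one of them in both (1.67, SE 0.16, and 2.42, SE 0.40). Both counts fell to 0 without a control library, *GFP* sg1 in NCI-H196 or either one in HCC366, and the NCI-H196 count was 1 without either *ADAR* library. IFN-β raised 1 of 9 in the controls (*RGS2*, a regulator of G-protein signalling, 0.72), which is 11.1% against 4.39% of all genes. In *ADAR* KO cells it raised 7 of 9 (77.8% against 15.5%), and the interaction was positive for 7 of 9 (77.8% against 4.07%).

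The factors through which NR4A transcription is known to be switched on were a list of 20. It held CREB, CRTC and MEF2 family members, class IIa histone deacetylases and serum response factor. Its median log2 fold change was −0.04 to 0.28. In A549 it was 0.24 after KO with IFN-β, 0.28 for IFN-β in *ADAR* KO cells and 0.27 for the interaction. The medians of all genes there were −0.01, −0.003 and 0.002, and their upper quartiles 0.27, 0.35 and 0.32. After KO, 1 of 17 rose in HCC366 (5.88%, against 1.2% of all genes), 4 of 18 in NCI-H1650 (22.2% against 6.19%) and 5 of 19 in NCI-H196 (26.3% against 10.3%). In A549, 0 of 17 rose with vehicle (0.0324% of all genes) and 5 of 17 with IFN-β (29.4% against 10.8%). By edgeR, 0 were called lower. In HCC366, 2 had an unadjusted p under 0.05 in that direction, DESeq2 called 1 lower, and edgeR called 3 lower without *ADAR* sg2 and 4 without *ADAR* sg1. With vehicle 1 of 17 was lower at an unadjusted p under 0.05 in edgeR, and DESeq2 called 0. At the same unadjusted threshold, 4 were lower and 4 higher in NCI-H1650, 1 and 6 in NCI-H196, and 1 and 8 in A549 with IFN-β. *HDAC9*, a class IIa deacetylase that represses MEF2, was among those called higher in HCC366 (2.97, SE 0.35), NCI-H1650 (0.68, SE 0.13) and NCI-H196 (0.65, SE 0.10). In A549 with IFN-β, *CREB1* was at 55.8 and 45.7 CPM in controls and 81.3 and 102 after KO (0.87, SE 0.13, adjusted p = 9.85e-06, edgeR), and *MEF2D* rose by 0.58 (SE 0.11). IFN-β raised 0 of 17 in the controls (edgeR and DESeq2, with 2 lower at an unadjusted p under 0.05). In *ADAR* KO cells it raised 4 of 17 (23.5%, against 15.5% of all genes). *CREB1* was the 1 factor of 17 with a positive interaction by edgeR (0.79, SE 0.18), which is 5.88% against 4.07% of all genes. DESeq2 called 3 factors, edgeR called 4 without *GFP* IFN-β sg1, and it called 0 without *GFP* vehicle sg2, *ADAR* vehicle sg2 or *ADAR* IFN-β sg2. The median over the list was at most 0.28 in any comparison. Most of these counts depended on single libraries, with 0 in NCI-H196 without *GFP* sg1 or either *ADAR* library, and 0 in HCC366 without either *GFP* library and 7 without *ADAR* sg1. In NCI-H1650 the count was 1 without *ADAR* sg2 and 2 without either *GFP* library, and in A549 with IFN-β it was 2 without *ADAR* sg2 and 3 without *GFP* sg2.

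Other nuclear receptors, a list of 45, served as the family to which the NR4A genes belong. By edgeR, the receptors called higher after KO numbered 2 of 25 in HCC366 (8.0%, against 1.2% of all genes), 5 of 27 in NCI-H1650 (18.5% against 6.19%) and 7 of 26 in NCI-H196 (26.9% against 10.3%). In A549 they numbered 0 of 29 with vehicle and 7 of 29 with IFN-β (24.1% against 10.8%), where 7 others fell (6.19% of all genes were called lower). With vehicle 2 of 29 had an unadjusted p under 0.05 in edgeR, both lower, and DESeq2 called 0. *NR1D1*, which encodes the heme-binding clock repressor REV-ERBα, was among them in every KO comparison except vehicle. It was at 16.7 and 11.2 CPM against 76.4 and 136 in HCC366, 18.6 and 16.1 against 35.4 and 45.6 in NCI-H1650, and 27.3 and 0 against 135 and 148 in NCI-H196. In A549 it was at 8.29 and 8.41 CPM against 10.95 and 10.96 with vehicle, and 13.2 and 12.6 against 65.0 and 84.8 with IFN-β (2.55, SE 0.16, adjusted p = 3.05e-13, edgeR). Its log2 fold changes were 2.97, 1.21 and 2.42 in HCC366, NCI-H1650 and NCI-H196, and its interaction in A549 was 2.16 (SE 0.25), beside 1.89, 1.92, 2.38 and 2.57 for *NR4A3*. Its paralogue *NR1D2* rose in NCI-H196 (0.89) and in A549 with IFN-β (0.91). The receptors that fell most in A549 with IFN-β were *HNF4A*, a regulator of liver and gut genes (−1.09, SE 0.23), *NR0B1* (−0.75, SE 0.20) and *NR2F6* (−0.61, SE 0.14). The number that fell was 0 without *ADAR* IFN-β sg2 and 1 without *GFP* IFN-β sg2, and the number that rose was 4 without *ADAR* IFN-β sg2. In HCC366 the number that rose was 0 without either *GFP* library and 11 without *ADAR* sg1, and in NCI-H196 it was 1 without *GFP* sg1 or *ADAR* sg2 and 2 without *ADAR* sg1. In NCI-H1650 it was 2 without *GFP* sg1 and 3 without *GFP* sg2 or *ADAR* sg2.

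Of 17 genes listed as known NR4A targets, mostly of liver, muscle and steroid metabolism, only 1 to 4 had enough reads to be tested in a line. In NCI-H1650 1 of 3 rose after KO, the muscle enolase gene *ENO3* (1.08, SE 0.23, adjusted p = 0.000738, edgeR), where 6.19% of all genes were called higher. In A549 with IFN-β 1 of 4 rose (*ENO3*, 0.79, SE 0.20) and 1 fell, the secreted phosphoprotein gene *SPP1* (−0.60, SE 0.11). There, 10.8% of all genes were called higher and 6.19% lower. The *ENO3* call in NCI-H1650 was lost with DESeq2 and without *GFP* sg1, the one in A549 without *GFP* IFN-β sg1 or *ADAR* IFN-β sg2, and the *SPP1* call without *ADAR* IFN-β sg2. In HCC366, NCI-H196 and A549 with vehicle 0 of 1, 0 of 2 and 0 of 4 were called by edgeR, with 1, 1 and 0 at an unadjusted p under 0.05 and 1, 0 and 0 called by DESeq2.

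**Figure D5:**
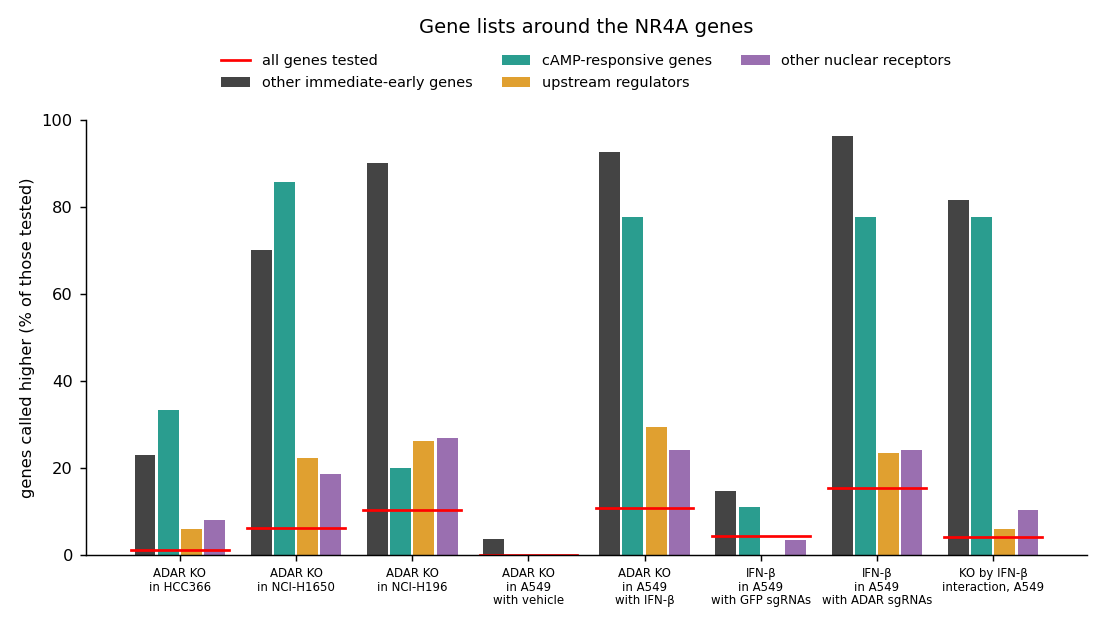
Percent of the tested genes of 4 lists called higher (adjusted p under 0.05, edgeR) in 8 comparisons; the red line is the percent of all genes tested that were called higher. Immediate-early genes reach 25 of 27 in A549 with IFN-β and 1 of 27 with vehicle, while upstream regulators and other nuclear receptors stay nearer to the red line. Both of these lists are above that line after KO, except in A549 with vehicle.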

How the data were processed

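RNA-seq of 20 libraries was analysed. According to the study's methods, the authors depleted ribosomal RNA, made directional libraries, sequenced 150-base paired reads, used STAR for alignment to hg19, and obtained reads per gene with HTSeq. The deposited values are raw read counts for 58233 Ensembl identifiers, without normalization. The annotation release and the strand setting are not given in the sources used here. Symbols matched 55727 identifiers.

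Here, edgeR 4.0.16 was run in R 4.3.3 (with limma 3.58.1) on the counts, by TMM scaling, filterByExpr by condition (minimum count 10, minimum total 15) and the quasi-likelihood F-test with Benjamini-Hochberg adjustment and a threshold of 0.05. Separate fits were made for HCC366, NCI-H1650, NCI-H196, all 8 A549 libraries and the 8 control libraries. DESeq2 1.42.0 was an alternative. Fitted log2 fold changes used a prior count of 0.125, and log2 CPM levels a prior count of 2. Standard errors are the absolute log2 fold change divided by the square root of F. The scripts were tested on simulated data. The members and lists were chosen with earlier results of these data known. Beside the members and *ADAR*, the genes named are up to 3 per direction from each list and comparison, by log2 fold change among those called, and the 5 most correlated with each member. P values measure the spread between 2 sgRNAs, and depth limits the members in HCC366 and NCI-H196, where several counts are under 30 reads. Libraries with the same sgRNA number did not deviate together, so the numbers were not taken to pair them.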

Additional observations from a re-analysis of the deposited data

Results flagged for a closer look

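In A549 cells, the *ADAR* KO effect with IFN-β differed from that with vehicle by the test of the interaction itself (edgeR's quasi-likelihood test, adjusted p under the threshold) for the list genes named here, which were taken for the largest interactions among those called. The interaction was 5.49 for *EGR1*, 4.94 for *FOSB* and 3.55 for *ATF3* among the immediate-early genes. It was 3.11 for *PTGS2*, which encodes an inducible prostaglandin synthase, 2.63 for *PER1* and 1.20 for *AREG* among the cAMP-responsive genes, and 0.79 for *CREB1* among the upstream regulators, a call lost in 3 fits without 1 library and in the fit of all 20 libraries. Among the nuclear receptors it was 2.16 for *NR1D1*, 1.03 for *NR1D2* and 0.65 for *NR3C1*, the glucocorticoid receptor. The *NR3C1* call was lost in 2 alternative fits and the *NR1D2* call in 1. *NR4A1* was the 1 member whose libraries lay in opposite directions. In A549 with vehicle both *ADAR* libraries were below both controls (log2 fold change −0.21, SE 0.16, not called by edgeR). In the 4 other KO comparisons both were above, although NCI-H196 *GFP* sg2 held only 2 *NR4A1* reads. The share of all genes with such an order was not counted, so nothing is read from it. The difference between lines was not tested.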

How the results depend on the processing

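Depth limits the members' values: NCI-H196 *GFP* sg2 held 2 NR4A reads, and NCI-H196 *ADAR* sg1 and all HCC366 libraries gave few reads per member. Genes called in HCC366 (139) were 362 by DESeq2, 903 without the filter, 300 with a replicate block by sgRNA number and 3701 in a fit of all 20 libraries, and 960 with crossed numbers, a block added after the data were seen. In NCI-H1650 (1250) they were 413 by DESeq2 and 159 in the fit of all libraries. In NCI-H196 (2513) they were 10 by DESeq2, 1552 without the filter, 115 with the replicate block, under which 0 members were called, and 98 in the fit of all libraries. In A549 with vehicle (19) they were 11, 30 without the filter and 5 in the fit of all libraries, which also gave 1088 with IFN-β (2623), 531 for IFN-β in controls (880), 2070 in *ADAR* KO cells (3788) and 164 for the interaction (780). The cause was not tested. Between control cells DESeq2 called 5321, 5450 and 5723 genes in A549 against HCC366, NCI-H1650 and NCI-H196 (10365, 10907 and 11253 by edgeR), 3986 and 4402 in HCC366 against NCI-H1650 and NCI-H196 (9050 and 9141), and 4154 in NCI-H1650 against NCI-H196 (9851).

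Mean log2 CPM differences in NCI-H196 were 0.87 for *NR4A1* and 3.21 for *NR4A2*. Calls lost with DESeq2 were *NR4A2* in A549 against HCC366 (−2.02), NCI-H1650 (−2.39) and NCI-H196 (−1.47), and *NR4A3* in A549 against NCI-H1650 (−0.87) and HCC366 against NCI-H1650 (−1.12) and NCI-H196 (2.19). Without the filter, A549 minus NCI-H1650 was 0.52 for *NR4A1*, now called, and −0.53 for *NR4A3*, no longer called. DESeq2 size factors moved the median of all genes by 0.13 (HCC366 minus NCI-H196) and 0.15 (NCI-H1650 minus NCI-H196).

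Leaving out 1 library in turn, genes called ranged from 9 to 6406 in HCC366, 542 to 1102 in NCI-H1650, 41 to 3041 in NCI-H196, 3 to 24 in A549 with vehicle, 677 to 3598 with IFN-β, 517 to 1250 for IFN-β in controls, 1762 to 4572 in *ADAR* KO cells and 249 to 1678 for the interaction. Between controls they ranged from 2558 to 12187 (A549 against NCI-H196), 1662 to 9688 (HCC366 against NCI-H196) and 1310 to 10639 (NCI-H1650 against NCI-H196). The log2 fold changes ranged as follows. In HCC366, *NR4A2* ranged from 0.13 to 0.66 and *NR4A3* from 1.63 to 2.09. In NCI-H1650, *NR4A1* ranged from 0.98 to 1.19 and *NR4A2* from 1.49 to 1.96. In NCI-H196, *NR4A1* ranged from 0.79 to 1.03, *NR4A2* from 1.10 to 8.41, *NR4A3* from 2.34 to 7.64, *NR2F2* from −0.76 to 8.23 and *CTGF* from −0.78 to 0.048. In A549 with vehicle, *NR4A2* ranged from −1.13 to 0.90 and *NR4A3* from −0.38 to 0.49, and with IFN-β *NR4A2* from 0.90 to 1.66. For IFN-β in controls, *NR4A2* ranged from 0.24 to 2.29 and *NR4A3* from −0.26 to 0.62, and in *ADAR* KO cells *NR4A2* from 2.49 to 2.88. The interaction ranged from 0.36 to 2.40 for *NR4A2* and 2.01 to 2.87 for *NR4A3*. Between controls, A549 minus HCC366 ranged from −3.38 to −1.34 for *NR4A2*, A549 minus NCI-H1650 from 0.23 to 0.43 for *NR4A1* and −1.31 to −0.41 for *NR4A3*, and A549 minus NCI-H196 from −3.04 to 6.21 for *NR4A2* and 1.99 to 8.28 for *NR4A3*. HCC366 minus NCI-H1650 ranged from −1.30 to −0.90 for *NR4A3*, HCC366 minus NCI-H196 from −2.08 to −1.40 for *NR4A1* and 2.13 to 7.86 for *NR4A3*, and NCI-H1650 minus NCI-H196 from 3.05 to 8.96 for *NR4A3*. Values of 6 or more came from leaving out NCI-H196 *GFP* sg1, when the control had 0 reads of the gene, and are no fold. The correlation of same-numbered libraries' deviations was −0.257 in HCC366 and between −0.078 and 0.063 elsewhere.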
